A study of Mus musculus with 22 samples.

Results

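The insulin-like growth factor binding proteins (Igfbp family) were followed here through mouse gastruloids, the aggregates of embryonic stem cells that lay down a body axis in culture. The members were the rows of the deposited count matrices with the symbols Igfbp1 to Igfbp7, which are 7 of 32285 genes. The family was chosen by its measured expression across named cell types and days of these data, so levels by type are given as descriptions without a test, and the tests between days are not independent support. Levels are CPM: unique molecular identifiers (UMIs) of a gene per 1000000 UMIs of all genes, summed over the cells of a gastruloid or of 1 cell type in it. The 3′ counts are per transcript and are not divided by transcript length.

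IGF binding proteins are secreted and hold the ligands Igf1 and Igf2 with an affinity like that of the receptor or above it. They can keep the ligands away from the type 1 receptor, carry them, or release them once a protease such as pappalysin cuts the binding protein. In the embryo Igf2 is the main growth-promoting ligand, and several binding proteins mark gut, somite and neural tissues.

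All gastruloids came from the wild-type mouse embryonic stem cell line E14Tg2A, so the spread between them is spread within 1 line. Each was aggregated in N2B27 medium, received a pulse of the GSK3 inhibitor CHIR99021, and was collected 3, 3.5, 4, 4.5 or 5 days after aggregation. No genotype or treatment differed between groups. In MULTI-seq, each chosen gastruloid got its own lipid-anchored barcode before pooling, so its cells can be traced back to it after droplet sequencing. The gastruloids were selected as representative of their dish. MULTI-seq 1 gave 24 gastruloids of day 5. MULTI-seq 2 gave 11 of day 4 and 12 of day 4.5 from 1 pool. MULTI-seq 3 gave 24 of day 3, 16 of day 3.5 and 16 of day 4 from a shared pool, and 16 of day 4.5 and 16 of day 5 from another shared pool. Day 3 and day 4 lanes without barcoding and a further MULTI-seq 2 pool had no gastruloid calls and serve as single values. By its label that further pool, run in 2 lanes, held days 4 and 4.5 together, so its levels are of mixed age. The 4 lanes of days 3 and 3.5 of MULTI-seq 2 are not analysed here.

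The matrices held 77674 cells that the authors kept and named with 25 cell type names, of which 53730 were assigned to 136 gastruloids. Those with at least 30 cells numbered 135, with 60 to 1397 cells each. The 18 lanes held 64703013 to 307883815 UMIs, and the median cell had 8287 to 38443 UMIs. Any 2 lanes shared at most 15 cell barcodes and, in another pair of lanes, at most 0.41% of the smaller lane. The median mitochondrial share was 1.94% to 2.26% in the lanes of MULTI-seq 3 and 4.85% to 5.48% in the others. Against marker lists of 4 genes per type, the names Mature Endoderm, Late Spinal Cord, Notochord, Somites, Late Posterior PSM (presomitic mesoderm), Endothelium and Cardiopharyngeal Mesoderm each had the highest summed level of their own list. Primitive Streak ranked 4 of 25 for its list at 711 CPM and Anterior Primitive Streak 3 at 758 CPM, below Early Nascent Mesoderm at 1209 CPM. Epiblast ranked 6 for its list at 387 CPM, below PGCs at 1121.5 CPM. Msgn1 was under 1 CPM in Early and Late Anterior PSM, which ranked 6 and 3 of 25 for the PSM list (280 and 441 CPM). A type not named PSM held up to 403 CPM. Pax6 was under 1 CPM in Early and Caudal Neurectoderm, which ranked 10 and 7 for the neural list (77.2 and 91.5 CPM). A type not named spinal cord or neurectoderm held up to 149 CPM. Those names, and Head Mesoderm, are used below as the authors' labels only. Markers of extraembryonic endoderm (Sox7, Ttr, Afp, Apoa1) summed to 0 to 28.5 CPM, with a median of 0.19 CPM over the types.

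The members lie in 2 neighbouring pairs and 3 further places of the mouse genome (GRCm38, GENCODE M21). Igfbp2 (ENSMUSG00000039323, chr1:72824503-72852474, plus strand) and Igfbp5 (ENSMUSG00000026185, chr1:72857932-72874884, minus strand) face each other with their 3′ ends across 5457 bases that hold 0 annotated genes. Igfbp1 (ENSMUSG00000020429, chr11:7197782-7202546, plus strand) and Igfbp3 (ENSMUSG00000020427, chr11:7206086-7213923, minus strand) do the same across 3539 bases, also with 0 genes between. Igfbp4 (ENSMUSG00000017493) lies at chr11:99041244-99054392 on the plus strand. Igfbp6 (ENSMUSG00000023046) lies at chr15:102144362-102149511 on the plus strand, and Igfbp7 (ENSMUSG00000036256) at chr5:77349240-77408041 on the minus strand, where it overlaps Polr2b and Gm34648 on the other strand.

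The 250 bases before the RefSeq start (GRCm38.p6) are shown for the 4 members with levels high enough to describe, since 2 of them, Igfbp2 and Igfbp5, are neighbours with different patterns. Capitals mark the motif matches, and each sequence is written 5′ to 3′ on the strand of its gene.
Igfbp2 (chr1:72824230-72824479, plus strand): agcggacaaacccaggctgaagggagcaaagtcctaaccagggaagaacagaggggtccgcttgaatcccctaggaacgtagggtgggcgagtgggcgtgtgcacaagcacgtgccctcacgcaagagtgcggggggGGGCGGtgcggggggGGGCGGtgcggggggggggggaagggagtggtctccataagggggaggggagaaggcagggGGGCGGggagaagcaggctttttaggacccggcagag
Igfbp3 (chr11:7213924-7214173, minus strand): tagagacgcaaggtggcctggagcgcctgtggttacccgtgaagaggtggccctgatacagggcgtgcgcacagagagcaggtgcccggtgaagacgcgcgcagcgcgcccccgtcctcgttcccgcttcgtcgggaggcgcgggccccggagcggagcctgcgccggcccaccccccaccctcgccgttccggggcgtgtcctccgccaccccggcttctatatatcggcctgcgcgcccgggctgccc
Igfbp4 (chr11:99040994-99041243, plus strand): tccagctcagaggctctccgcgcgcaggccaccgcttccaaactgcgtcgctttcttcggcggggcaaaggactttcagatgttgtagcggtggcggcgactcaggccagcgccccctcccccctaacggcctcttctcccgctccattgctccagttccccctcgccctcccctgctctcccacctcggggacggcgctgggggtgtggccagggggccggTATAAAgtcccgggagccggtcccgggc
Igfbp5 (chr1:72874866-72875115, minus strand): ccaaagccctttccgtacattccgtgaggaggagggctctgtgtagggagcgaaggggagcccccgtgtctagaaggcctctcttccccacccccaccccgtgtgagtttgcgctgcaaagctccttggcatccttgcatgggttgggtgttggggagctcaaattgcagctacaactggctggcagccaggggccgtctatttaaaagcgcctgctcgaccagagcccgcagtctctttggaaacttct

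All 7 members had an entry in the promoter table. Windows of 300 bases (250 before to 50 after the start) were searched on both strands for 5 letter strings: TATAAA of the core promoter, GGGCGG as bound by SP factors, CTTTGA as bound by TCF/LEF factors, AGGTGT as bound by T-box factors and AGGTCA as bound by nuclear receptors. The Igfbp2 window held 3 GGGCGG matches, 113, 98 and 37 bases before the start, and the Igfbp4 window held 1 TATAAA match, 28 bases before the start. The windows of Igfbp1, Igfbp3 and Igfbp5 held 0 matches to these strings. Among the other members, which were hardly detected, the Igfbp7 window held 4 GGGCGG matches and the Igfbp6 window 1 TATAAA match. Of 32851 promoter windows, 35.7% held GGGCGG, 13.6% TATAAA, 16.0% CTTTGA, 13.7% AGGTGT and 16.3% AGGTCA. The Igfbp3 window had 71.7% G or C and 37 CpG pairs, the Igfbp4 window 71.3% and 27, the Igfbp2 window 67% and 18, and the Igfbp5 window 56.3% and 10, against a median of 52.7% and 7 over all windows.

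Igfbp1, Igfbp6 and Igfbp7 were close to absent from these libraries. Of 1610041001 UMIs in cells with a gastruloid call, Igfbp1, known best from liver and decidua, had 28. Igfbp6, which prefers Igf2 as its ligand, had 427, and Igfbp7, a low-affinity relative found in vessels, had 181. At least 1 UMI was seen in 0.05% (Igfbp1), 0.73% (Igfbp6) and 0.32% (Igfbp7) of the 53730 cells. The highest level of Igfbp6 in any experiment, day and type with at least 50 cells was 4.89 CPM, in Mature Endoderm at day 4.5 of MULTI-seq 3 (35 UMIs, exact Poisson 95% interval 3.41 to 6.80, counting error only). For Igfbp7 it was 1.77 CPM (4 UMIs, 0.48 to 4.53), in Mature Endoderm at day 4.5 of MULTI-seq 2, and for Igfbp1 0.63 CPM (3 UMIs, 0.13 to 1.84), in Endothelium at day 5 of MULTI-seq 3. Mature Endoderm also had the highest Igfbp6 mean in MULTI-seq 3 at day 4 (1.17 CPM, SD 0.65, n = 13 gastruloids) and day 5 (3.04 CPM, SD 1.40, n = 8). Both lay above the next mean by more than the spread. At day 5 of MULTI-seq 1 its mean did not (0.70 CPM, 1 UMI, n = 3). Igfbp1, Igfbp6 and Igfbp7 did not pass the filter on low counts in any fit, so 4 of 7 members were tested between days.

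Means by type are given where at least 3 gastruloids had 20 or more cells of the type, and an order of means is among those types only. Some rarer types, with at least 50 cells in all, are given as 1 level pooled over gastruloids.

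Igfbp2, a binding protein with an integrin-binding motif, was highest in Mature Endoderm where that type had at least 50 cells, from day 4 on in MULTI-seq 3 and at day 3 in the lane without gastruloid calls (912 CPM, against 292 CPM in Anterior Primitive Streak). In MULTI-seq 3 at day 4, Mature Endoderm held 452 ± 68.3 CPM (SD, n = 13 gastruloids), from 262 to 548 with a median of 453. The next means were those of Notochord, 172 ± 26.8 CPM (n = 6), and Head Mesoderm, 72.0 ± 23.8 CPM (n = 7). Both gaps were larger than the spread of either neighbour. Late Nascent Mesoderm, at 68.2 ± 20.8 CPM (n = 11), did not differ from Head Mesoderm beyond the spread. Between Notochord and Head Mesoderm lay pooled Early Neurectoderm (54 cells) and Primitive Streak (124 cells), at 119 CPM each, Early Nascent Mesoderm at 98.1 CPM (76 cells) and Caudal Neurectoderm at 89.1 CPM (191 cells). The lowest mean was that of Late Anterior PSM at 4.58 ± 1.97 CPM (n = 9). At day 5 Mature Endoderm held 648 ± 120 CPM (n = 8), from 427 to 842 with a median of 641, above Head Mesoderm at 111 ± 41.3 CPM (n = 5) and pooled Notochord at 170 CPM (138 cells), and Late Anterior PSM held 3.89 ± 3.30 CPM (n = 12). At day 3 of MULTI-seq 3, where Mature Endoderm had under 50 cells, the gene was spread over the early types. Early Neurectoderm (178 ± 20.6 CPM, n = 16), Primitive Streak (172 ± 15.1 CPM, n = 24) and Early Nascent Mesoderm (162 ± 28.5 CPM, n = 12) did not differ beyond their spread, while Early Posterior PSM (94.9 ± 13.1 CPM, n = 5) lay below them by more than that. Pooled Anterior Primitive Streak held 217 CPM (137 cells) and PGCs 195 CPM (58 cells).

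Igfbp3, the main carrier of IGFs in the blood, was highest in the streak up to day 3.5 and then, up to day 4.5, in the caudal progenitors. Primitive Streak held 120 ± 18.2 CPM at day 3 (n = 24, 90.2 to 168, median 122) and 177 ± 40.6 CPM at day 3.5 (n = 13, 116 to 260.0, median 175). Both values lay above the next mean, Early Posterior PSM at day 3 (60.1 ± 18.0 CPM, n = 5) and Caudal Epiblast at day 3.5 (84.2 ± 10.6 CPM, n = 13), by more than the spread. At day 3.5 pooled Notochord lay between them at 115.6 CPM (210 UMIs, 63 cells). At day 4 the order of means began with Caudal Epiblast at 115 ± 24.4 CPM (n = 13), NMPs (neuromesodermal progenitors) at 82.9 ± 20.8 CPM (n = 9) and Notochord at 69.2 ± 18.3 CPM (n = 6). NMPs and Notochord did not differ beyond their spread. All 11 other types with a mean had 15.7 CPM or less, down to 1.14 ± 0.86 CPM in Late Nascent Mesoderm (n = 11), and pooled Primitive Streak held 81.3 CPM (124 cells). NMPs had the highest mean at day 4.5, 41.6 ± 21.5 CPM (n = 8), but pooled Caudal Epiblast (81.4 CPM, 54 cells) and Notochord (74.1 CPM, 79 cells) held more. At day 5 NMPs held 17.3 ± 6.41 CPM (n = 14), no longer above Mature Endoderm (11.8 ± 4.88 CPM, n = 8) by more than the spread. Pooled Notochord (35.1 CPM, 138 cells) and Endothelium (29.96 CPM, 122 cells) lay above both at day 5.

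Igfbp4, mostly known as an inhibitor of IGF action that pappalysin cleaves, was highest in mesodermal types. Early Nascent Mesoderm held 28.7 ± 10.1 CPM at day 3 (n = 12), and its 3 gastruloids of day 3.5 held 149, 160 and 211 CPM. Primitive Streak of the same days held 2.65 ± 0.93 CPM (n = 24) and 4.08 ± 2.12 CPM (n = 13). At day 4 Early Posterior PSM (95.3 ± 26.9 CPM, n = 15), Late Nascent Mesoderm (86.8 ± 39.3 CPM, n = 11), Early Anterior PSM (84.3 ± 16.9 CPM, n = 14) and Cardiopharyngeal Mesoderm (76.5 ± 43.5 CPM, n = 6) did not differ beyond their spread. Pooled Early Nascent Mesoderm held 234 CPM (76 cells). Early Spinal Cord had the lowest mean, 7.56 ± 2.30 CPM (n = 3), and pooled Caudal Neurectoderm (5.81 CPM, 191 cells) and Primitive Streak (6.60 CPM, 124 cells) were lower. At day 5 Head Mesoderm had the highest mean, 117 ± 31.9 CPM (n = 5), above Mature Somites at 62.2 ± 16.3 CPM (n = 16) by more than the spread, and Late Spinal Cord the lowest, 12.3 ± 2.70 CPM (n = 8). Pooled Cardiopharyngeal Mesoderm held 130.7 CPM (69 cells). Endothelium had too few cells per gastruloid for a mean. Pooled over gastruloids it held 708 CPM at day 5 of MULTI-seq 3 (3377 UMIs, 122 cells) and 898 CPM at day 5 of MULTI-seq 1 (1087 UMIs, 77 cells), the highest pooled Igfbp4 levels of any type there.

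Igfbp5, the most conserved member and a marker of the myotome and of neural tissue in embryos, was close to 0 at day 3 and exceeded 400 CPM on average in 3 types by day 5. None of the 4 types with a mean exceeded 1.66 CPM at day 3, and pooled Caudal Neurectoderm held 4.22 CPM (173 cells). In the day 3 lane without gastruloid calls, Mature Endoderm held 35.8 CPM (42 UMIs). At day 3.5 Early Spinal Cord had the highest mean, with 33.8, 35.0, 35.2 and 73.5 CPM in its 4 gastruloids, and the next was Caudal Neurectoderm at 7.85 ± 1.69 CPM (n = 10). Pooled Late Spinal Cord held 64.4 CPM (78 cells) and Late Neurectoderm 23.4 CPM (115 cells). At day 4.5 Mature Somites (252 ± 53.9 CPM, n = 10), Late Spinal Cord (112 ± 28.9 CPM, n = 7), Early Spinal Cord (56.5 ± 31.2 CPM, n = 14) and NMPs (12.2 ± 3.20 CPM, n = 8) followed each other by more than the spread. Pooled Head Mesoderm (524 CPM, 68 cells) and Mature Endoderm (329 CPM, 148 cells) lay above them, and Notochord (187 CPM, 79 cells) between Mature Somites and Late Spinal Cord. The order of means at day 5 was Head Mesoderm (957 ± 192 CPM, n = 5), Mature Endoderm (702 ± 314 CPM, n = 8), Mature Somites (438 ± 137 CPM, n = 16), Late Spinal Cord (188 ± 42.7 CPM, n = 8), Early Spinal Cord (66.1 ± 26.9 CPM, n = 15) and NMPs (23.2 ± 13.2 CPM, n = 14). Head Mesoderm and Mature Endoderm did not differ beyond their spread, nor did Mature Endoderm and Mature Somites. Pooled Notochord held 328 CPM (138 cells) and Cardiopharyngeal Mesoderm 279 CPM (69 cells). The type named Somites held 5.74 ± 6.76 CPM (n = 10), and both late PSM types lay between 7.01 and 8.38 CPM.

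**Figure D1:**
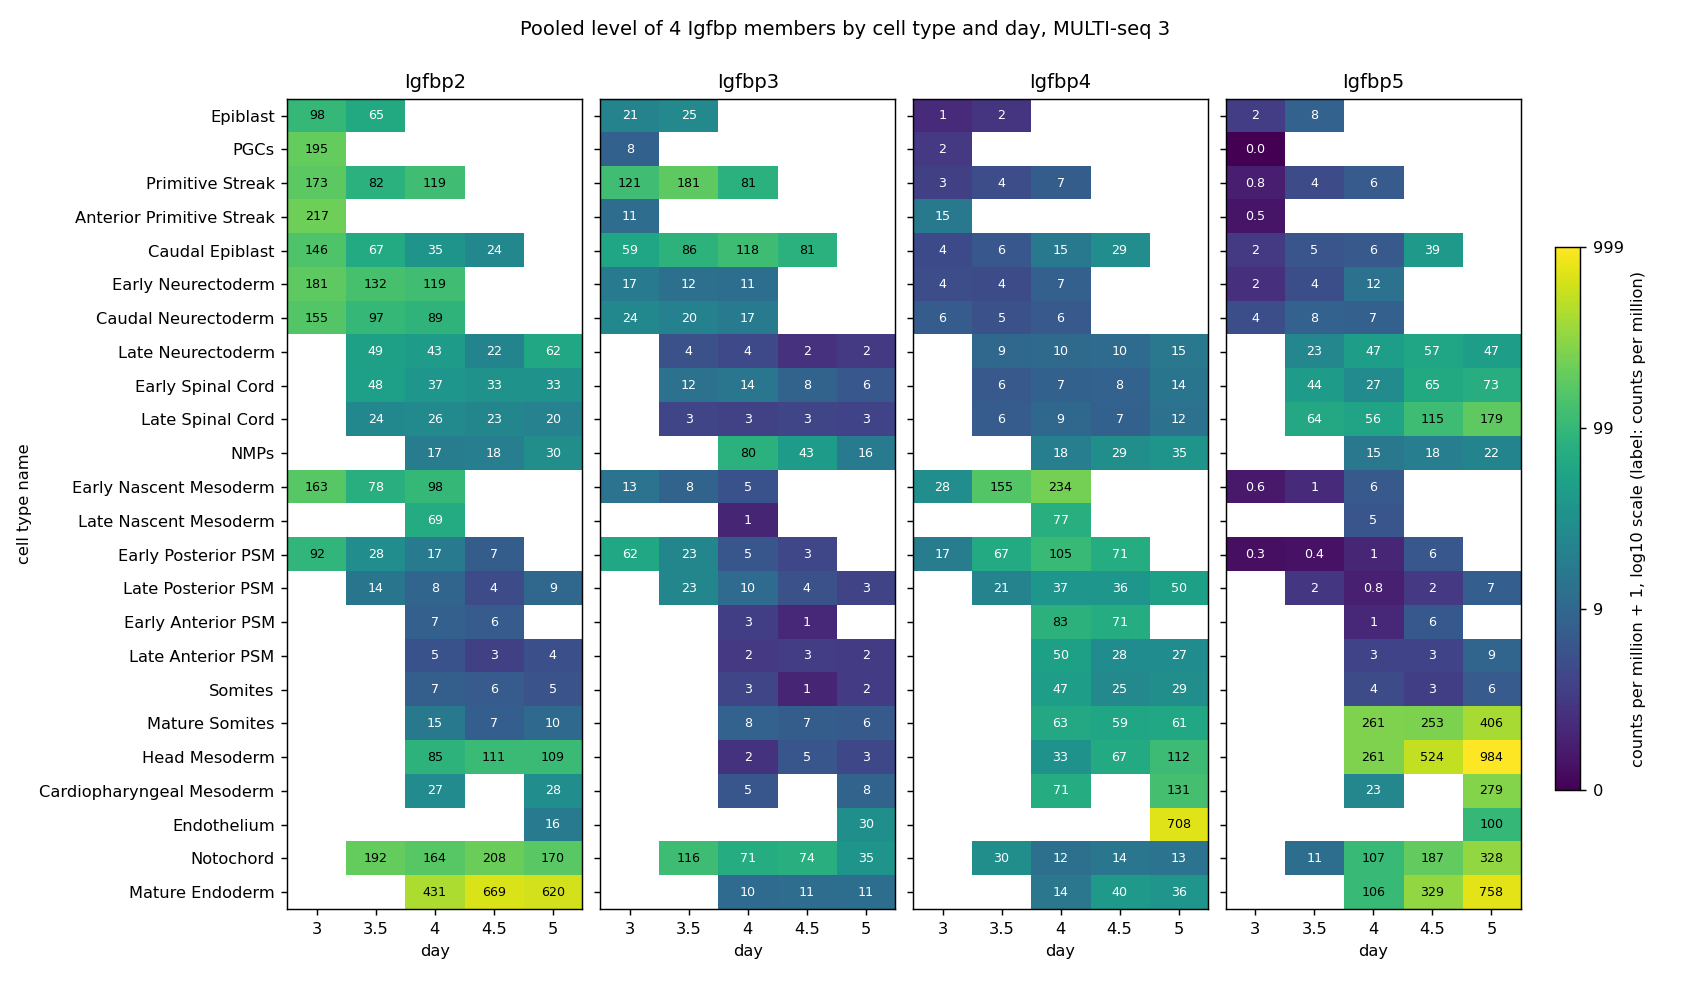
Pooled level of Igfbp2, Igfbp3, Igfbp4 and Igfbp5 (log10 of CPM + 1, colour) by cell type name (rows) and day after aggregation (columns) in MULTI-seq 3. Igfbp2 is brightest in Mature Endoderm, Igfbp3 in Primitive Streak and Caudal Epiblast, Igfbp4 in Endothelium and nascent mesoderm, and Igfbp5 in Head Mesoderm, Mature Endoderm and Mature Somites at day 5.

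The other experiments repeated these orders in part. At day 5 of MULTI-seq 1, Mature Endoderm was highest for Igfbp2 (584 ± 179 CPM, n = 3; 415, 567 and 771), and pooled Notochord (157 CPM), Head Mesoderm (102 CPM) and Late Neurectoderm (73.4 CPM) lay above Late Spinal Cord at 40.0 CPM. For Igfbp5 pooled Head Mesoderm was highest at 1391 CPM (1989 UMIs, 114 cells). Mature Endoderm held 895 ± 77.7 CPM (n = 3), Mature Somites 447 ± 144 CPM (n = 22) and Late Spinal Cord 259 ± 57.7 CPM. For Igfbp3 NMPs held 22.5 ± 11.1 CPM (n = 20), below pooled Endothelium (43.0 CPM, 77 cells) and Notochord (38.5 CPM, 70 cells). For Igfbp4 the highest mean was that of Mature Somites, 83.0 ± 31.8 CPM (n = 22), below pooled Endothelium, Cardiopharyngeal Mesoderm (190 CPM, 140 cells) and Head Mesoderm (160 CPM, 114 cells). In MULTI-seq 2, Igfbp5 was highest in Head Mesoderm at day 4.5 (930 ± 459 CPM, n = 3) and stood at 311 ± 81.3 CPM in Mature Somites (n = 7). The highest means of Igfbp2 there were in Late Nascent Mesoderm at day 4 (130 CPM) and Head Mesoderm at day 4.5 (81.9 CPM), below pooled Mature Endoderm (485 and 564 CPM). Those of Igfbp3 were in Late Posterior PSM (12.8 CPM) and Early Spinal Cord (9.90 CPM), below pooled Caudal Epiblast (99.04 and 121 CPM). The lanes without gastruloid calls give 1 value each, with exact Poisson intervals that cover counting error only. There Mature Endoderm was highest for Igfbp2 in all 4 lanes, with 912 CPM at day 3 (858 to 968) and 655 CPM at day 4 (610.4 to 702). The lanes of the further MULTI-seq 2 pool held 445 and 512 CPM. These lanes are 1 pool of days 4 and 4.5 together, so they are not separate repeats and match no single day. Igfbp3 was highest in Primitive Streak at day 3 (167 CPM, 162 to 172) and in Caudal Epiblast in the day 4 lane (116 CPM, 104 to 129). Igfbp4 was highest in Early Nascent Mesoderm in the day 3 lane, at 86.7 CPM (81.5 to 92.2). That lies above the 28.3 CPM pooled for this type at day 3 of MULTI-seq 3. In the day 4 lane Igfbp4 was highest in Cardiopharyngeal Mesoderm, with 135 CPM (126 to 144) against 96.7 CPM in Early Posterior PSM. The same type was highest in both lanes of the further pool (112 and 102 CPM). Igfbp5 was highest in Mature Somites in the day 4 lane (203 CPM), and in Head Mesoderm (917 CPM) in 1 lane of the further pool and Mature Somites (337 CPM) in the other, where Head Mesoderm had under 50 cells.

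Shares of cells with a UMI were also read at equal depth. After thinning each cell to 5000 UMIs, Igfbp2 was seen in 83.3 ± 8.92% of Mature Endoderm cells at day 4 (n = 13; 98.97% before thinning) and in 3.00 ± 2.77% of Late Anterior PSM cells (n = 9; 15.0% before thinning), with median depths of 40442 and 30296 UMIs. Igfbp3 was seen in 50.8 ± 11.1% of Primitive Streak cells at day 3.5 (n = 13; 90.6% before thinning). The lowest share of that day was 0.74 ± 1.28% in Early Nascent Mesoderm (n = 3; 8.15%), with median depths of 37708 and 36627 UMIs. Igfbp4 was seen in 47.8 ± 6.83% of Early Nascent Mesoderm cells of that day (n = 3; 94.6% before thinning), and its lowest share was 1.89 ± 1.14% in Caudal Neurectoderm (n = 10; 17.4%; median depth 38212 UMIs). Igfbp5 was seen in 87.9 ± 6.22% of Head Mesoderm cells at day 5 (n = 5; 96.6% before thinning). Its lowest share of that day was 1.47 ± 2.51% in the type named Somites (n = 10; 7.86%), with median depths of 27349 and 27133 UMIs. Thinning left out 189 cells, all from day 5 of MULTI-seq 1.

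Whole gastruloids were compared between the days that shared a pool and its lanes, to ask how each member moved as the gastruloid aged. In sums over all cells, fewer cells of a type and less RNA per cell cannot be told apart. From day 3.5 to day 4 in MULTI-seq 3, 60.4% of 13262 genes passed edgeR's quasi-likelihood test at an adjusted p of 0.05, with 31.1% higher and 29.2% lower, so the 3 of 4 tested members that passed are near the background. The median log2 difference of the 4 tested members was 0.62, against 0.01 over all genes tested.

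Igfbp3 ran from 27.3 to 91.3 CPM at day 3.5 (median 48.1) and from 6.75 to 30.6 CPM at day 4 (median 15.1), and all 16 gastruloids of day 4 were below the day 3.5 median. The groups overlapped only between 27.3 and 30.6 CPM. Igfbp3 fell by 1.68 ± 0.20 (SE) on the log2 scale (edgeR adjusted p = 4.02e-08). Igfbp4 ran from 3.62 to 71.1 CPM (median 10.8) and then from 10.1 to 81.2 CPM (median 51.9), and rose by 1.12 ± 0.39 (edgeR adjusted p = 0.0129), with 15 of 16 gastruloids above the earlier median. Igfbp5 ran from 1.11 to 32.4 CPM (median 6.63) and then from 2.23 to 315 CPM (median 16.7). It rose by 2.50 ± 0.63 (edgeR adjusted p = 0.00108), with 12 of 16 gastruloids above the earlier median. Leaving out any 1 gastruloid gave 1.85 to 2.83 with the call kept, which does not show the joint weight of the 3 highest. Those 3 gastruloids of day 4 held 80.9 to 315 CPM. The other 13 ran from 2.23 to 33.8 CPM, near the day 3.5 range, and a fit without all 3 was not run. Igfbp2 went from 51.9 to 100.1 CPM (median 74.3) to 31.2 to 168 CPM (median 80.2), a difference of 0.11 ± 0.15 that did not pass (edgeR adjusted p = 0.556).

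From day 4.5 to day 5 in MULTI-seq 3, 13.5% of 12298 genes passed, 6.35% higher (781) and 7.11% lower (874; 903 and 645 with library totals in place of TMM scaling), and 2 of 4 tested members did. The median over the 4 was 0.35, against -0.00 over all genes tested. Igfbp5 ran from 43.8 to 320 CPM at day 4.5 (median 89.8) and from 139 to 502 CPM at day 5 (median 231). It rose by 1.12 ± 0.21 (edgeR adjusted p = 0.000579), with all 16 gastruloids above the earlier median. Igfbp3 ran from 3.41 to 21.5 CPM (median 8.34) and then from 4.40 to 11.4 CPM (median 6.95), and fell by 0.59 ± 0.19 (edgeR adjusted p = 0.0330), with 15 of 16 below the earlier median. This call was lost without lane 1 (edgeR adjusted p = 0.124), without lane 2 (0.0639), with no filter on low counts (0.0569), and without any 1 of 3 day 4.5 gastruloids or 1 day 5 gastruloid (highest 0.0707). Igfbp4 ran from 12.04 to 59.8 CPM (median 30.9) and then from 24.2 to 70.2 CPM (median 50.8). Its difference of 0.59 ± 0.22 did not pass (edgeR adjusted p = 0.0714), and it passed without 1 of the day 4.5 gastruloids (0.69, edgeR adjusted p = 0.0330). Igfbp2 did not pass either (0.11 ± 0.31, edgeR adjusted p = 0.878), with a wide range of 13.03 to 190 CPM at day 4.5.

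From day 4 to day 4.5 in MULTI-seq 2, 7.36% of 11064 genes passed, 3.03% higher (335) and 4.33% lower (479; 511 and 381 with library totals), and 2 of 4 tested members did. The median over the 4 was -0.44, against -0.00 over all genes tested. Igfbp5 ran from 4.88 to 134 CPM at day 4 (median 21.8) and from 47.4 to 382 CPM at day 4.5 (median 78.6). It rose by 1.88 ± 0.46 (edgeR adjusted p = 0.0137), with all 12 gastruloids above the earlier median. Igfbp2 ran from 43.6 to 135 CPM (median 60.7) and then from 27.4 to 77.7 CPM (median 34.5), and fell by 0.91 ± 0.22 (edgeR adjusted p = 0.0130), with 10 of 12 below the earlier median. Both calls were lost without lane 3, at edgeR adjusted p = 0.0663 for Igfbp5 and 0.0781 for Igfbp2, and that of Igfbp5 with a minimum of 100 cells (0.113). Igfbp3 went from 23.0 ± 12.3 to 13.9 ± 3.96 CPM, a difference of -0.69 ± 0.23 that did not pass (edgeR adjusted p = 0.0708). It passed with DESeq2 (adjusted p = 0.0263) and, by edgeR, without either of 2 day 4 gastruloids (lowest adjusted p = 0.0274). Igfbp4 did not pass (-0.20 ± 0.37, edgeR adjusted p = 0.820).

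**Figure D2:**
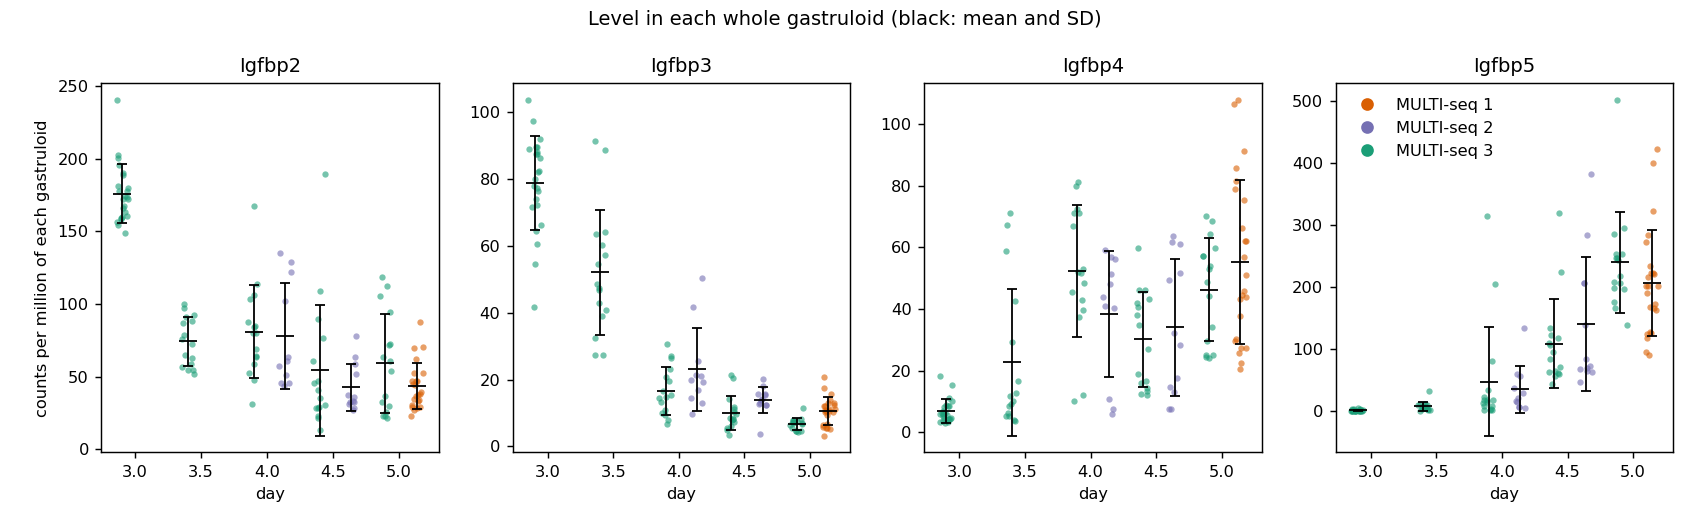
Level of Igfbp2, Igfbp3, Igfbp4 and Igfbp5 in whole gastruloids (CPM, 1 point per gastruloid) by day after aggregation, coloured by experiment, with the mean and SD of each group in black. In MULTI-seq 3 the mean of Igfbp3 goes from 78.9 CPM at day 3 to 6.75 CPM at day 5 and that of Igfbp5 from 1.83 to 240 CPM.

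Days 3 and 3.5 lay in different pools and were not tested against each other. The same holds for days 4 and 4.5 of MULTI-seq 3. The day 3 gastruloids held 176 ± 20.1 CPM of Igfbp2, 78.9 ± 14.1 of Igfbp3, 6.88 ± 3.78 of Igfbp4 and 1.83 ± 1.21 of Igfbp5 (n = 24). The day 5 gastruloids held 59.2 ± 34.1 CPM of Igfbp2, 6.75 ± 1.81 of Igfbp3, 46.2 ± 16.8 of Igfbp4 and 240 ± 81.5 of Igfbp5 (n = 16).

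The same day in 2 experiments shows how far the levels repeat, though experiment, culture, library, lanes and the mitochondrial share given above cannot be told apart. At day 5, 63.7% of 11718 genes differed between MULTI-seq 1 and MULTI-seq 3, and 3 of 4 members did. Igfbp2 was higher in MULTI-seq 3 (43.6 ± 15.9 against 59.2 ± 34.1 CPM; 0.69 ± 0.20, edgeR adjusted p = 0.00293). Igfbp3 was lower (10.5 ± 4.20 against 6.75 ± 1.81 CPM; -0.41 ± 0.15, edgeR adjusted p = 0.0143). Igfbp5 was higher (207 ± 85.8 against 240 ± 81.5 CPM; 0.44 ± 0.16, edgeR adjusted p = 0.0126), a call lost with library totals (0.22, adjusted p = 0.212), which moved the median of all genes to -0.25 and the split from 3518 higher and 3945 lower to 1581 and 7169. Igfbp4 did not differ past the threshold (-0.03, edgeR adjusted p = 0.899). Between MULTI-seq 2 and MULTI-seq 3, 46.1% of 13713 genes differed at day 4 (3155 higher and 3173 lower; 5319 and 1554 with library totals, which moved the median by 0.18) and 42.5% of 11695 at day 4.5 (2468 and 2498; 1993 and 3082). On both days 0 of 4 members passed edgeR's test. At an unadjusted p under 0.05 the count was 1, Igfbp3 (edgeR adjusted p = 0.0590 at day 4 and 0.0928 at day 4.5). With DESeq2, Igfbp3 passed at day 4 (-0.63, adjusted p = 0.0303) and 0 members passed at day 4.5.

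Within a named type, counts were summed per gastruloid and type to ask whether the level of a member moved within that name. In such sums, a changed mix of cell states under 1 name and a change within the cells cannot be told apart. From day 3.5 to day 4, 2 types had at least 6 gastruloids with 20 cells in each day, and in both all 3 members tested passed. In Caudal Epiblast (n = 13 and 13), 18.8% of 8851 genes passed. Igfbp2 ran from 33.8 to 108 CPM (median 66.9) and then from 20.9 to 50.5 CPM (median 36.9), and fell by 0.88 ± 0.14 (edgeR adjusted p = 3.10e-05; 13 of 13 below the earlier median). Igfbp3 ran from 66.4 to 99.7 CPM (median 83.9) and then from 78.6 to 161 CPM (median 115), and rose by 0.46 ± 0.09 (edgeR adjusted p = 0.000458; 12 of 13 above). Igfbp4 went from 5.76 ± 2.90 to 16.8 ± 10.1 CPM and rose by 1.51 ± 0.27 (edgeR adjusted p = 0.000136; 11 of 13 above).

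In Early Posterior PSM (n = 10 and 15), 36.9% of 10049 genes passed. Igfbp2 went from 31.1 ± 10.6 to 17.9 ± 7.21 CPM and fell by 0.85 ± 0.16 (edgeR adjusted p = 6.26e-05; 13 of 15 below the earlier median). Igfbp3 ran from 8.49 to 86.7 CPM (median 21.4) and then from 3.19 to 30.6 CPM (median 4.76). It fell by 2.19 ± 0.34 (edgeR adjusted p = 5.15e-06; 13 of 15 below), and by 1.91 without the gastruloid at 86.7 CPM (adjusted p = 3.90e-06). Igfbp4 ran from 28.6 to 90.6 CPM (median 49.9) and then from 57.1 to 147 CPM (median 87.1), and rose by 0.62 ± 0.16 (edgeR adjusted p = 0.00219; 15 of 15 above). Igfbp2 and Igfbp4 thus moved the same way in both types, while Igfbp3 rose in Caudal Epiblast and fell in Early Posterior PSM.

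The difference between the types was tested directly, in gastruloids that held at least 20 cells of both. The family was chosen by its expression across types and days of these data, so these tests are not independent support. Igfbp3 went from 28.3 to 7.74 CPM in Early Posterior PSM and from 87.0 to 113 CPM in Caudal Epiblast of the same gastruloids (n = 10 and 12). The difference of differences was -1.36 on the log2(CPM + 10) scale (permutation test, two-sided, 100000 resamples, p = 0.00038, Benjamini-Hochberg adjusted over 7 tests 0.00266), and 11 of 12 gastruloids of day 4 lay below the day 3.5 median. Leaving out any 1 gastruloid gave -1.49 to -1.18. From day 4.5 to day 5, the change of Igfbp3 also differed between Mature Somites (6.25 to 6.36 CPM) and Early Spinal Cord (10.3 to 5.58 CPM, n = 8 and 15). The difference of differences was 0.38 (permutation test, p = 0.00249, adjusted 0.00871), with 15 of 15 day 5 gastruloids beyond the day 4.5 median. The Early Spinal Cord value rests on which day 4.5 gastruloids enter. Over all 14 with at least 20 such cells its mean was 8.46 CPM, against 10.3 CPM in these 8. The other 5 tests, of Igfbp2, Igfbp4 and Igfbp5, each had an adjusted p of 0.837.

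From day 4.5 to day 5, 5 types could be tested, and 9 of 18 tests of members passed. Igfbp5 rose in Mature Somites and Late Spinal Cord. In Mature Somites, where 14.6% of 10328 genes passed, it ran from 191 to 356 CPM (median 245, n = 10) and then from 296 to 663 CPM (median 378, n = 16), and rose by 0.79 ± 0.14 (edgeR adjusted p = 0.000111; 16 of 16 above). In Late Spinal Cord, where 7.79% of 9921 genes passed, it ran from 81.0 to 145 CPM (median 123, n = 7) and then from 122 to 263 CPM (median 187, n = 8), and rose by 0.75 ± 0.15 (edgeR adjusted p = 0.00205; 7 of 8 above). In Early Spinal Cord, where 12.3% of 9150 genes passed, its difference of 0.20 ± 0.18 did not pass (edgeR adjusted p = 0.527, n = 14 and 15). This value rests on which day 4.5 gastruloids enter: in the 8 that also held 20 cells of Mature Somites, Igfbp5 in Early Spinal Cord went from 36.9 to 66.1 CPM, a change of 0.65 on the log2(CPM + 10) scale. Mature Somites of the same gastruloids changed by 0.78. In NMPs (12.2 to 23.2 CPM) it did not pass either (0.79 ± 0.27, edgeR adjusted p = 0.0681) and did with no filter on low counts (adjusted p = 0.0428).

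Igfbp3 fell in NMPs and in Early Spinal Cord. In NMPs, where 6.06% of 8460 genes passed, it ran from 22.1 to 83.0 CPM (median 34.9, n = 8) and then from 10.1 to 33.6 CPM (median 16.2, n = 14), and fell by 1.39 ± 0.20 (edgeR adjusted p = 4.09e-06; 14 of 14 below). In Early Spinal Cord it went from 8.46 ± 4.02 to 5.58 ± 1.11 CPM and fell by 0.57 ± 0.16 (edgeR adjusted p = 0.0140; 15 of 15 below), a call lost with a minimum of 50 cells (adjusted p = 0.0588) and without lane 2 (0.0906). In Mature Somites and Late Spinal Cord it did not pass (-0.05 and -0.08, edgeR adjusted p = 0.919 and 0.891).

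Igfbp4 rose in 3 of the 5 types. It went from 8.49 ± 3.88 to 12.7 ± 3.19 CPM in Early Spinal Cord (0.76 ± 0.17, edgeR adjusted p = 0.00142; 14 of 15 above). In Late Spinal Cord it went from 7.32 ± 1.83 to 12.3 ± 2.70 CPM (0.76 ± 0.15, edgeR adjusted p = 0.00280; 8 of 8 above). In Late Posterior PSM, where 6.15% of 8421 genes passed, it went from 35.2 ± 5.93 to 49.7 ± 9.19 CPM (0.43 ± 0.10, edgeR adjusted p = 0.00238; 13 of 15 above), a call lost without lane 1 (adjusted p = 0.0863) or lane 2 (0.0643). It did not pass in Mature Somites or NMPs (edgeR adjusted p = 0.408 and 0.736).

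Igfbp2 rose in the 2 caudal types. In NMPs it ran from 13.01 to 38.2 CPM (median 16.7) and then from 19.96 to 40.7 CPM (median 29.7), and rose by 0.60 ± 0.15 (edgeR adjusted p = 0.00737; 14 of 14 above). In Late Posterior PSM it went from 2.95 ± 2.39 to 8.80 ± 4.07 CPM and rose by 1.35 ± 0.29 (edgeR adjusted p = 0.00175; 15 of 15 above). It did not pass in Mature Somites (0.49, edgeR adjusted p = 0.145), Early Spinal Cord (0.01, adjusted p = 0.979) or Late Spinal Cord (-0.05, adjusted p = 0.942).

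**Figure D3:**
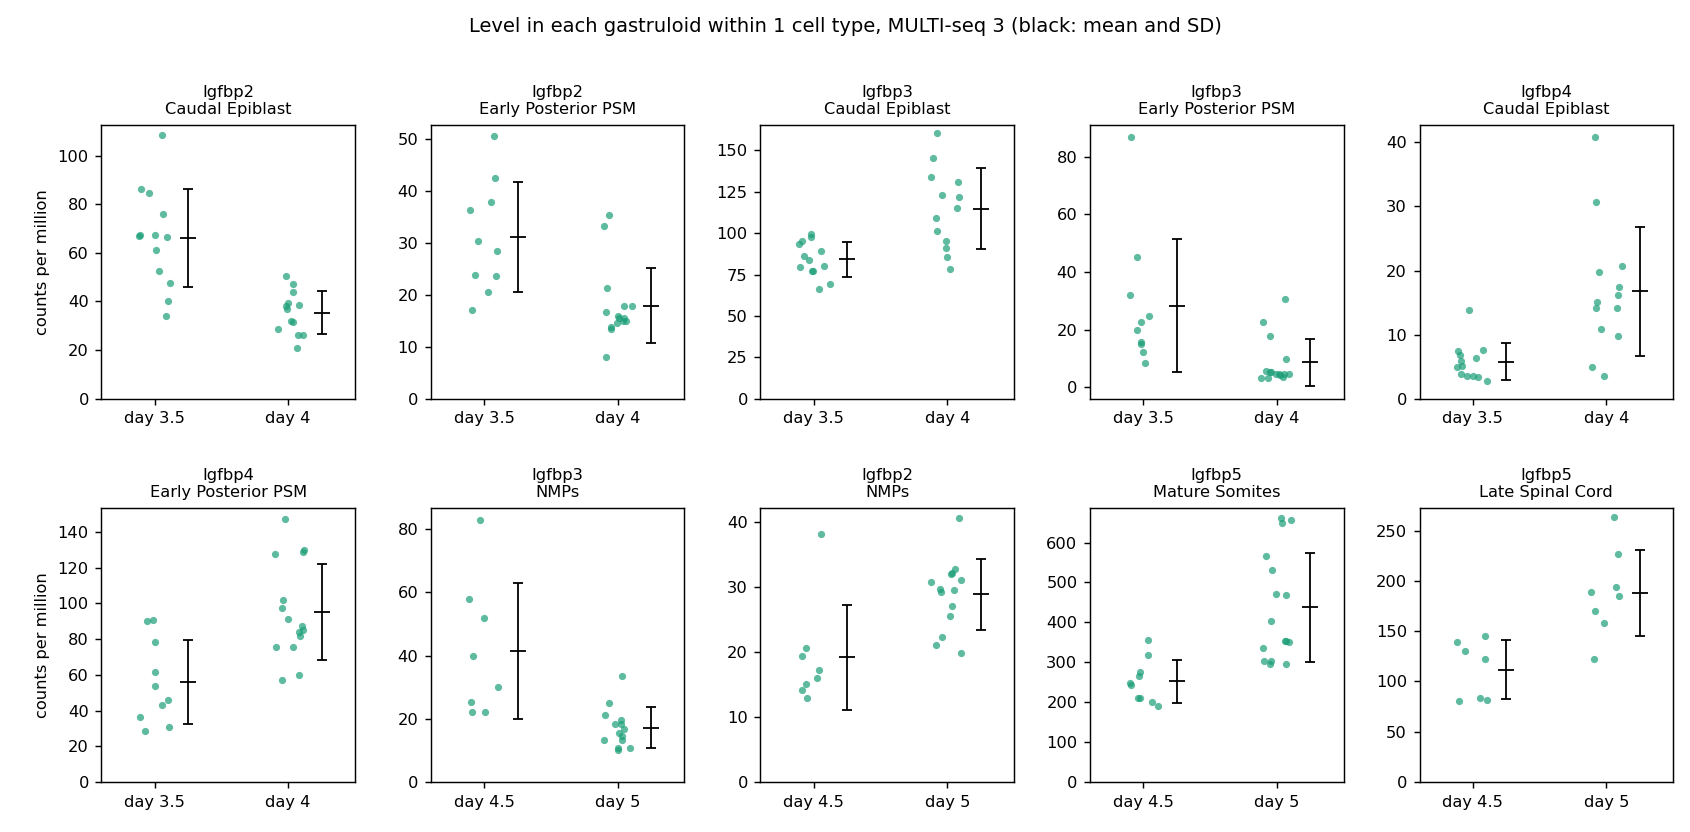
Level within a type (CPM, 1 point per gastruloid with at least 20 cells of the type, black lines for mean and SD) in MULTI-seq 3, for Igfbp2, Igfbp3 and Igfbp4 in Caudal Epiblast and Early Posterior PSM at day 3.5 and day 4, and for Igfbp3 and Igfbp2 in NMPs and Igfbp5 in Mature Somites and Late Spinal Cord at day 4.5 and day 5. Igfbp3 is higher at day 4 in Caudal Epiblast (median 115 against 83.9 CPM) and lower in Early Posterior PSM (4.76 against 21.4 CPM).

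Mature Endoderm could be tested only with a minimum of 10 cells, a setting added after the data were seen. There 1.63% of 8363 genes passed. Igfbp5 ran from 91.6 to 719 CPM at day 4.5 (median 181, n = 7) and from 378 to 1374 CPM at day 5 (median 626, n = 9), and rose by 1.31 ± 0.31 (edgeR adjusted p = 0.0308; 9 of 9 above the earlier median). Igfbp2 in the same cells went from 672 ± 130.03 to 683 ± 154 CPM and did not pass (-0.00 ± 0.13, edgeR adjusted p = 0.999). At this minimum, Late Anterior PSM (2.86% of 6703 genes), Somites (3.6% of 6146) and, in MULTI-seq 2, Late Posterior PSM (1.13% of 6275) tested Igfbp4 alone, which did not pass (edgeR adjusted p = 0.980, 0.722 and 0.279). In the last, Igfbp4 went from 31.3 ± 9.31 to 46.2 ± 8.55 CPM (0.43 ± 0.17), with 8 of 8 gastruloids above the earlier median.

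The difference of the mean level between 2 days was split exactly into a part from the changed share of UMIs of each type and a part from changed levels within types. The split is arithmetic and has no test. A type absent on 1 of the days was given its level of the other day, so that its part counts as makeup only. From day 3.5 to day 4 makeup took most of each difference. Igfbp3 changed by -35.4 CPM, of which -25.5 came from makeup, with -22.4 from Primitive Streak alone as its share of UMIs went from 13.5% to 1.22%. Igfbp4 changed by +29.6 CPM (makeup +19.6), led by Early Anterior PSM, whose share went from 0.18% to 11.9% and which added 9.88 CPM. Igfbp5 changed by +39.9 CPM (makeup +32.3), and by +22.1 CPM (makeup +17.7) without the day 4 gastruloid at 315 CPM. With all gastruloids the parts were 14.5 from Mature Somites and 12.7 from Head Mesoderm, both at 0% of UMIs at day 3.5, and 11.4 from Mature Endoderm. At day 4, Mature Somites had 20.3% to 23.2% of UMIs in the 3 gastruloids highest in Igfbp5 and at most 8.70% in the other 13. For Head Mesoderm these shares were 10.9% to 25.9% and at most 6.81%. The split was not run without all 3.

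For Igfbp2, which did not pass between those days, gains and losses of types offset each other. Its mean changed by +6.61 CPM (+0.82 to +9.92 when any 1 gastruloid was left out), with +8.08 from makeup and -1.48 from levels. Mature Endoderm, going from 0.96% to 10.9% of UMIs, added 44.3 CPM, and the losses of Caudal Neurectoderm (18.1% to 2.56%, -15.5 CPM) and Early Neurectoderm (-11.1 CPM) were among those that offset it. In MULTI-seq 2, over a later pair of days, the share of the same type fell. Mature Endoderm went from 8.14% of UMIs at day 4 to 2.86% at day 4.5 and took 23.3 of the 35.1 CPM by which Igfbp2 fell.

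From day 4.5 to day 5 levels gave the larger part for Igfbp5 and Igfbp3, and makeup for Igfbp4. For Igfbp2 the difference was +4.88 CPM (+5.14 from makeup and -0.25 from levels), and leaving out any 1 gastruloid gave +0.93 to +13.9 CPM. Igfbp5 changed by +131 CPM, +46.5 from makeup and +84.7 from levels. Mature Somites, going from 17.8% to 28.3% of UMIs, added 72.1 CPM of it, 34.9 from makeup and 37.2 from levels. Igfbp3 changed by -3.19 CPM, -0.05 from makeup and -3.14 from levels, and NMPs gave -1.94 CPM of it. Igfbp4 changed by +16.1 CPM (+11.5 from makeup and +4.63 from levels), and Endothelium, from 0.31% to 1.46% of UMIs, added 8.02 CPM. In MULTI-seq 2, Igfbp5 changed by +105 CPM (+36.1 from makeup and +69.1 from levels), with 40.1 CPM from Head Mesoderm and 35.8 CPM from Mature Somites.

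**Figure D4:**
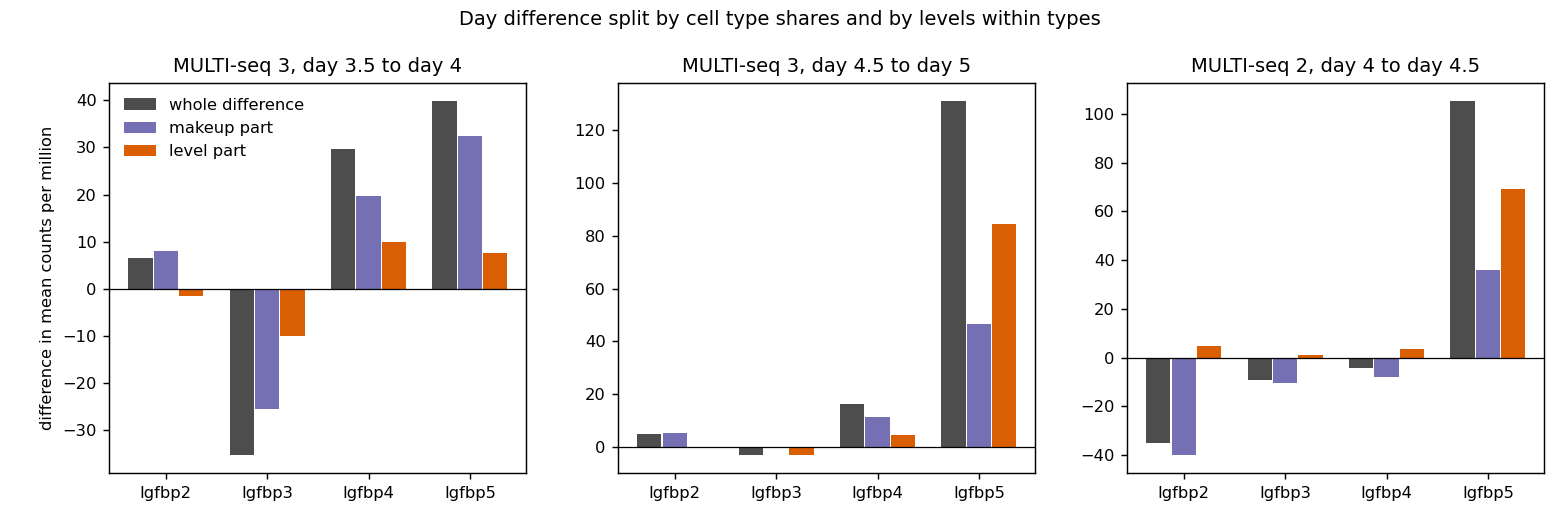
Difference of the mean level (CPM, later day minus earlier day) of Igfbp2, Igfbp3, Igfbp4 and Igfbp5 for 3 pairs of days, with bars for the whole difference, the part from the makeup of the gastruloids and the part from levels within types. For Igfbp5 from day 4.5 to day 5 the level part (84.7 CPM) is the larger, and from day 3.5 to day 4 the makeup part (32.3 CPM) is.

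Gastruloids of the same age differed most in Igfbp5 at day 4. The SD of log2(CPM + 10) between the 16 gastruloids of MULTI-seq 3 was 1.40. The SD expected from their makeup was 0.97, with each type at its level pooled over the gastruloids. That pooled level includes the highest gastruloids, and in Head Mesoderm it was 261 CPM against a mean of 152 CPM. The SD of what remained was 0.62, the largest of any member, day and experiment. The highest gastruloid held 315 CPM, the next 2 held 205 and 80.9 CPM, and the other 13 ran from 2.23 to 33.8 CPM. These 3 gastruloids also had the largest shares of Mature Somites (23.2%, 21.6% and 20.3% of UMIs, against at most 8.70% in any other).

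They were the highest within types as well. In Mature Somites they held 422, 337 and 213 CPM, and the other 4 gastruloids with a value ran from 47.3 to 99.1 CPM. In Head Mesoderm they held 443, 313 and 118 CPM, and the other 4 ran from 27.0 to 64.3 CPM. In Mature Endoderm they held 301, 207 and 132 CPM, and the other 10 ran from 14.6 to 43.7 CPM. Notochord did not keep that order: its 6 values were 274, 265, 111, 54.5, 27.5 and 20.4 CPM, and the gastruloid at 265 CPM held 22.6 CPM as a whole. No test was made, since the gastruloids were singled out by the level itself. The spread of Igfbp2 followed makeup more closely, with an SD of 0.81 at day 4.5 of MULTI-seq 3 and 0.79 expected from makeup.

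**Figure D5:**
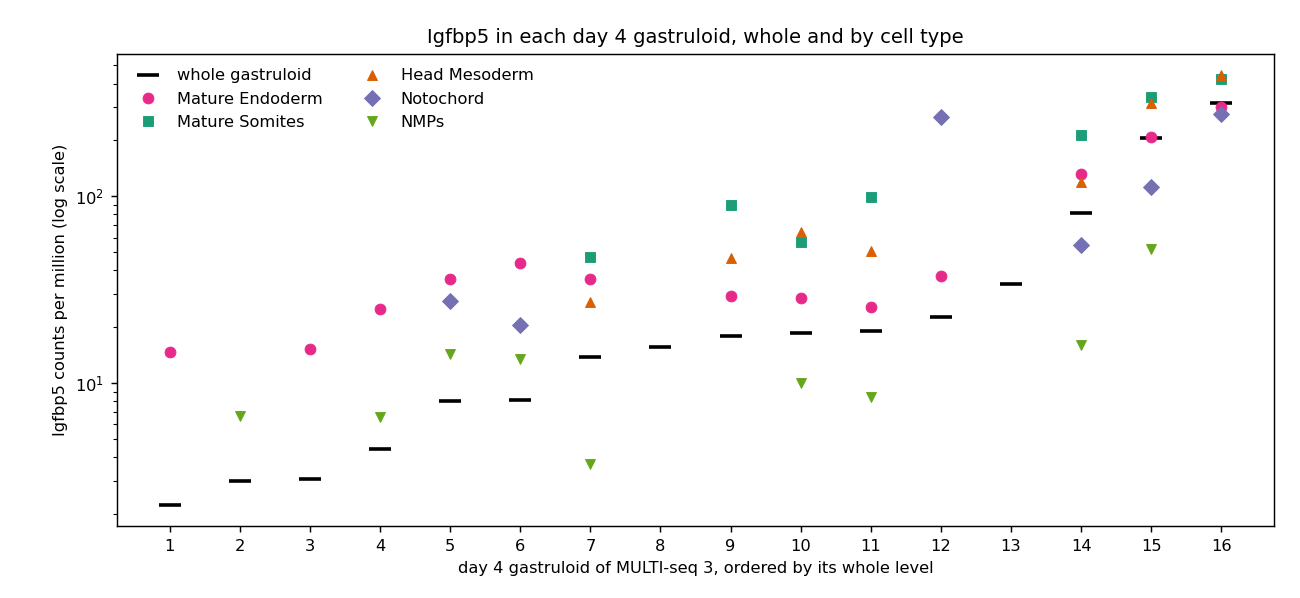
Igfbp5 (CPM, log axis) in the 16 gastruloids of day 4 of MULTI-seq 3, ordered by the level of the whole gastruloid, with the whole level and the level in Mature Endoderm, Mature Somites, Head Mesoderm, Notochord and NMPs where the gastruloid had at least 20 such cells. The 3 rightmost gastruloids, at 80.9, 205 and 315 CPM as a whole, are also the highest in Mature Endoderm, Mature Somites and Head Mesoderm.

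The members did not follow each other closely. Over 107 groups of experiment, day and type with at least 50 cells, Pearson's r of log2(CPM + 1) was 0.39 between Igfbp2 and Igfbp3, 0.26 between the neighbours Igfbp2 and Igfbp5, 0.21 between Igfbp4 and Igfbp5, -0.08 between Igfbp3 and Igfbp5, -0.26 between Igfbp3 and Igfbp4 and -0.34 between Igfbp2 and Igfbp4. These are descriptions, since groups share lanes, depth and gastruloids. Of 11041 genes, those most like Igfbp2 were Ucp2 (0.87), Krt18 (0.84) and Epcam (0.82). Those most like Igfbp3 were Tdrd5, Pgr and B3gnt7 (0.80 each). Gnas (0.84), Cmtm3 (0.81) and Tax1bp3 (0.81) were most like Igfbp4, and Ikzf2 (0.83), Col2a1 (0.83) and Hsd11b2 (0.82) most like Igfbp5.

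The rest of the pathway was read from a list of 26 genes, chosen with earlier results of these data known. Of the ligands, only Igf2 passed the filter on low counts. It ran from a median of 15.0 CPM at day 3.5 (highest 24.8) to 25.1 to 206 CPM at day 4 (median 116), and rose by 2.81 ± 0.24 (edgeR adjusted p = 1.37e-10; 16 of 16 above). It also rose from day 4.5 to day 5 (64.3 to 109.9 CPM, 0.75 ± 0.25, edgeR adjusted p = 0.0429, 14 of 16 above), and did not pass in MULTI-seq 2 (1.24 ± 0.44, edgeR adjusted p = 0.0891). Its day 4.5 mean lay below that of day 4 (117.7 CPM), in another pool, and this difference was not tested. At day 4 Cardiopharyngeal Mesoderm (291 ± 57.9 CPM), Mature Somites (267 ± 37.2 CPM) and Somites (258 CPM) had the highest means of it. At day 5 Head Mesoderm held 360 ± 29.8 CPM, Mature Somites 188 ± 16.9 CPM and Late Spinal Cord 28.2 CPM. Igf1, Ins2 and Ins1 had means of at most 2.82, 0.21 and 0 CPM and were not tested.

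Of the receptors, Igf1r, the signalling receptor, rose in all 3 pairs of days, by 0.48 ± 0.04 from day 3.5 to day 4 (61.6 to 87.6 CPM, edgeR adjusted p = 2.73e-10), 0.16 ± 0.05 from day 4.5 to day 5 (adjusted p = 0.0172) and 0.29 ± 0.06 in MULTI-seq 2 (adjusted p = 0.00194). Igf2r, which clears Igf2, rose in the 2 pairs of MULTI-seq 3, by 0.22 ± 0.06 (41.5 to 49.1 CPM, edgeR adjusted p = 0.00350) and 0.48 ± 0.10 (37.5 to 53.2 CPM, adjusted p = 0.00207). In MULTI-seq 2 it did not pass (-0.11 ± 0.11, edgeR adjusted p = 0.617). Insr, the insulin receptor, rose in the first pair only (0.42 ± 0.06, edgeR adjusted p = 3.28e-07), and the difference between the pairs was not tested. Insrr, a relative of the insulin receptor, had means of at most 0.62 CPM and was not tested.

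Among adaptors, Grb10, an inhibitor bound to the receptors, rose by 0.89 ± 0.09 (72.6 to 137 CPM, edgeR adjusted p = 1.15e-09) and by 0.43 ± 0.08 (86.1 to 117 CPM, adjusted p = 0.000256) in the pairs of MULTI-seq 3. In MULTI-seq 2 it did not pass (53.2 to 67.1 CPM; 0.31 ± 0.15, edgeR adjusted p = 0.241). Among proteases of the binding proteins, Pappa, which cuts Igfbp4, rose from day 3.5 to day 4 (2.65 to 16.7 CPM; 2.49 ± 0.41, edgeR adjusted p = 6.06e-06) and did not pass in the other pairs (0.29 and -0.43, adjusted p = 0.662 and 0.712). Htra1, a secreted serine protease, fell from day 3.5 to day 4 (10.2 to 4.91 CPM; -1.12 ± 0.32, adjusted p = 0.00361) and in MULTI-seq 2 (5.38 to 2.19 CPM; -1.23 ± 0.35, adjusted p = 0.0308), and was too low to test from day 4.5 to day 5. Of the mRNA-binding proteins, Igf2bp1 rose by 0.15 ± 0.03 in the first pair (edgeR adjusted p = 0.000227) and fell by 0.25 ± 0.03 in the second (adjusted p = 3.24e-06), and did not pass in MULTI-seq 2 (0.04 ± 0.04, adjusted p = 0.527). Igf2bp2 rose in all 3, by 0.60 ± 0.07 (edgeR adjusted p = 4.90e-08), 0.09 ± 0.03 (0.0196) and 0.25 ± 0.07 (0.0321), and Igf2bp3 rose in the first (0.09 ± 0.03, adjusted p = 0.0220) and in MULTI-seq 2 (0.19 ± 0.04, 0.00337), and did not pass in the second (-0.05 ± 0.04, edgeR adjusted p = 0.431).

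In all, 10 of 16 tested genes of the list rose and 2 fell from day 3.5 to day 4. Of all genes tested, 31.1% were higher and 29.2% lower (60.4% in either direction). The median was 0.27 against 0.01 over all genes tested. From day 4.5 to day 5, 6 of 15 rose and 1 fell (6.35% of all genes higher and 7.11% lower), with a median of 0.16 against -0.00. In MULTI-seq 2, 3 of 16 rose and 1 fell (3.03% of all genes higher and 4.33% lower), with a median of 0.05 against -0.00. The list was chosen with earlier results of these data known, so these counts are descriptions.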

How the data were processed

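Droplet 3′ libraries were aligned and counted by the authors with Cell Ranger 6.0.0 against mm10 and handled in Seurat, per the submitters' processing notes. The deposited matrices hold raw UMI counts, and the authors' deposited table gives each kept cell its lane, gastruloid call and type name. Doublet removal and cell filters are the authors' own, and 9 kept cells had no barcode in a matrix. The marker check of Head Mesoderm is not reported here.

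UMI counts were summed per gastruloid (at least 30 cells) or per gastruloid and type (at least 20 cells, at least 6 gastruloids per day; at least 3 for a level). Sums were tested with edgeR 4.0.16 (quasi-likelihood, filterByExpr, TMM, Benjamini-Hochberg over all genes of a fit, threshold 0.05) in R 4.3.3, with DESeq2 1.42.0 as an alternative. Fold changes are log2 with SE. CPM, shares, permutation tests and the makeup split were computed in Python 3.11.15 (numpy 2.4.6, pandas 2.3.3, scipy 1.17.1). The edgeR step and the permutation step were tested on simulated data.

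Every member is named. Pathway genes are named if they are ligands or receptors or passed in 2 or more pairs of days, and the 3 genes most like each member are named; Pappa, outside those rules, was chosen after its values were seen. The members and lists were chosen with earlier results of these data known. Nothing says whether gastruloids came from separate cultures, so p-values measure the spread between gastruloids.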

Additional observations from a re-analysis of the deposited data

Results flagged for a closer look

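Of 69 groups of 4 to 10 gastruloids tested for a value far from the others (Dixon's test, which chance passes in about 1 of 20 groups), 14 held one, all in MULTI-seq 3. For Igfbp2, Early Neurectoderm at day 3.5 had a lowest value of 118 CPM (others 131 to 137). NMPs had a highest value of 33.3 CPM at day 4 (others 11.3 to 20.3) and 38.2 CPM at day 4.5 (others 13.01 to 20.7). Late Spinal Cord at day 5 had a highest value of 42.5 CPM (others 13.2 to 25.3).

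For Igfbp3, Early Posterior PSM at day 3.5 had a highest value of 86.7 CPM (others 8.49 to 45.2), Notochord at day 4 a lowest of 33.8 CPM (others 72.5 to 87.5), and Mature Endoderm at day 5 a highest of 22.3 CPM (others 7.73 to 13.97). For Igfbp4, the highest value was 34.1 CPM in Early Posterior PSM at day 3 (others 11.6 to 16.9), 164 CPM in Cardiopharyngeal Mesoderm at day 4 (others 51.5 to 69.4) and 59.1 CPM in NMPs at day 4.5 (others 22.6 to 39.0). For Igfbp5, Early Spinal Cord at day 3.5 had a highest value of 73.5 CPM (others 33.8 to 35.2), NMPs at day 4 one of 51.9 CPM (others 3.67 to 16.0) and Mature Endoderm at day 5 one of 1374 CPM (others 378 to 839.6). NMPs at day 4.5 had a lowest Igfbp5 value of 5.00 CPM (others 10.7 to 14.8). That value comes from 32 cells with 999646 UMIs of all genes, and the 8 gastruloids held 112 Igfbp5 UMIs together. Dixon's test takes no account of such counting error.

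The change of Igfbp3 differed between types in both pairs of days of MULTI-seq 3. It differed by -1.36 between Early Posterior PSM and Caudal Epiblast (permutation test, adjusted p = 0.00266). Between Mature Somites and Early Spinal Cord it differed by 0.38 (permutation test, adjusted p = 0.00871). The family was chosen by its expression across types and days of these data, so neither test is independent support. The second used 8 of the 14 day 4.5 gastruloids with at least 20 Early Spinal Cord cells. Its mean levels were 5.58 to 10.3 CPM, on a scale that adds 10 CPM before the log.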

How the results depend on the processing

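Of 27 results that passed, 21 kept direction and call under every alternative run, and of 28 that did not pass, 12 did. From day 4.5 to day 5, the 2 members called in whole gastruloids became 1 with no filter on low counts, without lane 1 and without lane 2, and 1 to 3 when any 1 gastruloid was left out. Within types, 9 calls became 2 with a minimum of 50 cells (1 tested and lost, 6 not testable) and 4 without lane 2 (2 lost, 3 not testable). From day 3.5 to day 4, 6 calls within types became 3 with a minimum of 50 cells, where the other 3 were not testable. In MULTI-seq 2, 2 calls became 1 with a minimum of 100 cells and 0 by edgeR without lane 3 (3 at an unadjusted p under 0.05), against 3 with DESeq2 on both lanes. Between experiments, 0 calls at day 4 became 1 with DESeq2, without lane 3 of MULTI-seq 2, and without lane 1 or lane 2 of MULTI-seq 3. At day 4.5, 0 became 1 with a minimum of 100 cells and without lane 1 of MULTI-seq 3. All of these between experiments were Igfbp3.

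The results that changed sign had not passed. Igfbp2 changed sign from day 3.5 to day 4 without 1 day 4 gastruloid (-0.0034, up to 0.16 without others), and from day 4.5 to day 5 without lane 2 (-0.098). In Early Spinal Cord it came to -0.12 with 50 cells, -0.0050 without lane 1 and -0.070 without lane 2, and in Late Spinal Cord to 0.0055 with DESeq2 and 0.11 without lane 1. Between experiments at day 4, Igfbp2 came to 0.035 with library totals, and with 100 cells Igfbp4 to -0.034 and Igfbp5 to -0.22. Between types, Igfbp2 came to -0.011 and Igfbp4 to -0.34 with a pseudocount of 1, Igfbp2 to -0.038 and Igfbp4 to 0.024 with 50, and leaving out 1 gastruloid gave Igfbp4 -0.022 to 0.16 in the first pair of days and -0.11 to 0.043 in the second, and Igfbp2 -0.042 to 0.15 in the second. For calls lost and gained, the cause was not tested.

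At a minimum of 50 cells the highest type was the same in 15 of 28 comparisons, with fewer types left. In MULTI-seq 2 no type had 6 gastruloids with 20 cells in both days. The 10-cell minimum and leaving out gastruloids were chosen after seeing the data. No paired analysis was possible because gastruloids compared within a pool share no barcode numbers, and a number shared between pools or experiments only names the barcode. Types with few cells, and so few UMIs, limit precision.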
